A study of Mus musculus with 12 samples.

Results

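The mitochondrial genome of the mouse was described through the 37 rows of the deposited count tables whose gene symbol starts with mt-, out of 55335 gene rows in all. Of these, 13 are protein genes, 2 are rRNA genes and 22 are tRNA genes, and the same 37 rows were read in RNA-seq and in ribosome footprints. The rule uses the symbol and no measured value. Enough reads for a test were found for 21 of the 37: 7 protein rows, both rRNA rows and 12 tRNA rows.

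Thymocytes, the developing T cells of the thymus, came from mice grown to 6 weeks of age in specific pathogen-free housing. These were wild-type mice (WT) and mice with a knockout of miR-181a/b-1, a cluster of microRNA genes (KO). Each mouse group was profiled by RNA-seq of total RNA and by ribosome footprinting, which sequences the RNA fragments that ribosomes shield from nuclease. That gave 12 libraries in 4 groups of 3, all from cells passed through a 70 µm strainer and put into buffer with 0.1 mg/ml cycloheximide. The labels name no Cre driver, tissue-restricted deletion or pooling of animals, and do not tell which RNA-seq and which footprint library came from the same mouse.

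Mitochondria carry a small circular genome whose protein genes all encode membrane subunits of the respiratory chain and of the ATP synthase. Both of its strands are transcribed into long precursors, from which the tRNAs are cut out and so release most of the rRNAs and mRNAs between them. The mRNAs are translated inside the organelle by mitoribosomes, which use the rRNAs and tRNAs of the same genome and nuclear-encoded ribosomal proteins. Mammalian mitoribosomes also hold a mitochondrial tRNA as a structural part of the large subunit, tRNA-Val in human and tRNA-Phe in pig. Cycloheximide acts on cytosolic ribosomes, and mitoribosomes are not its target.

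Reads in genes numbered 4479182 to 8180286 per RNA-seq library and 4069968 to 17859770 per footprint library, the fewest in KO replicate 2 of RNA-seq and in KO replicate 3 of footprints. All 9 thymocyte markers were detected in every group. Their summed level in RNA-seq was 12587 to 13858 CPM (reads of a gene per 1000000 reads in genes of the library) in WT and 11096 to 12179 CPM in KO, without overlap. In footprints the genotypes overlapped (20742 to 22566 CPM over all libraries). Marker sums were not TMM-scaled, whereas the CPM of a row in a single library was TMM-scaled within the assay. The Mir181a-1 row, a precursor gene of the deleted cluster, held 132 to 166 CPM in WT footprint libraries and 0.46 to 1.04 CPM in KO. In RNA-seq it held 0.96 to 3.96 CPM in WT and 2.33 to 5.10 CPM in KO, ranges that overlap and do not fall with the knockout. Markers of other cells were far lower, but some also moved with genotype in RNA-seq: all 5 erythroid markers were detected, summing to 77.8 to 94.6 CPM in WT and 44.0 to 57.2 CPM in KO, and all 6 thymic epithelium markers summed to 20.4 to 24.3 CPM in WT and 14.3 to 17.8 CPM in KO. The 5 fibroblast or endothelium markers summed to 195 to 198 CPM in WT and 213 to 215 CPM in KO, and B cell markers (at most 19.3 CPM) and macrophage or dendritic cell markers (59.5 to 76.3 CPM) overlapped between genotypes. In footprints the thymic epithelium markers summed to 78.8 to 85.6 CPM in WT and 61.4 to 72.2 CPM in KO, and the other 4 lists of other cells overlapped. The part of any of these markers in the differences given here was not tested. Libraries with the same replicate number stood on opposite sides of their group means: the deviation of a WT library from its group mean correlated with that of the KO library of the same number at -0.98 to -0.96 over 9814 genes of RNA-seq, and at -0.97 to -0.96 over the 21 mitochondrial rows. In footprints the range was -0.98 to -0.97 over 9902 genes and -0.99 to -0.98 over 17 mitochondrial rows. The scatter within a genotype in these deposited counts may therefore not be the scatter between mice, and p-values built on it may be too small. In bulk samples such as these, fewer cells of a type and less RNA per cell cannot be told apart.

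The rows did not all hold reads. In the order of the genes round the genome, an unbroken run of 11 rows from mt-Ts1 to mt-Nd4l held 14 RNA-seq reads and 6 footprint reads over all libraries together. That run contains 6 protein genes: mt-Co2 and mt-Co3, subunits of complex IV (cytochrome c oxidase), mt-Atp6 and mt-Atp8, both mitochondrial subunits of the ATP synthase, and mt-Nd3 and mt-Nd4l, subunits of complex I (NADH dehydrogenase). It also contains 5 tRNA genes, for serine, aspartate, lysine, glycine and arginine. In 8 of the 11 rows, mt-Co2, mt-Atp6 and mt-Atp8 among them, all 12 libraries were at 0.

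The reads that the run did hold were few. mt-Tr, the arginine tRNA, had 12 RNA-seq reads and no footprint read. mt-Nd3 had 1 RNA-seq read and 6 footprint reads, 5 of them in WT replicate 1, and mt-Co3 had 1 RNA-seq read. A row at 0 over the 6 libraries of an assay allows up to 3 reads, a level of 0.0754 CPM in RNA-seq and 0.0393 CPM in footprints, by counting error alone. The genes at both ends of the run were well covered: mt-Co1, just before it, held 28351 RNA-seq reads and 44711 footprint reads, and mt-Nd4, just after it, 3015 and 6402.

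Another 5 tRNA rows were nearly empty, each between rows that held reads. mt-Tw had 12 RNA-seq reads and 1 footprint read, mt-Tn had 2 and 3, mt-Th and mt-Te had 3 RNA-seq reads each and no footprint read, and mt-Ty had none. With so few reads no difference between genotypes or assays could be measured for any of the 16 rows, and nothing here speaks for the ATP synthase subunits or for mt-Co2 and mt-Co3. Reads with several alignments, which htseq-count sets apart from all genes, made up 13.1% to 20.5% of the counted reads in RNA-seq and 17.7% to 18.6% in footprints, and to which rows they belong was not analysed here. RefSeq gives mt-Atp6 as a synonym of the nuclear pseudogene Gm10925, whose row held 8 RNA-seq reads and 0 footprint reads.

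**Figure D1:**
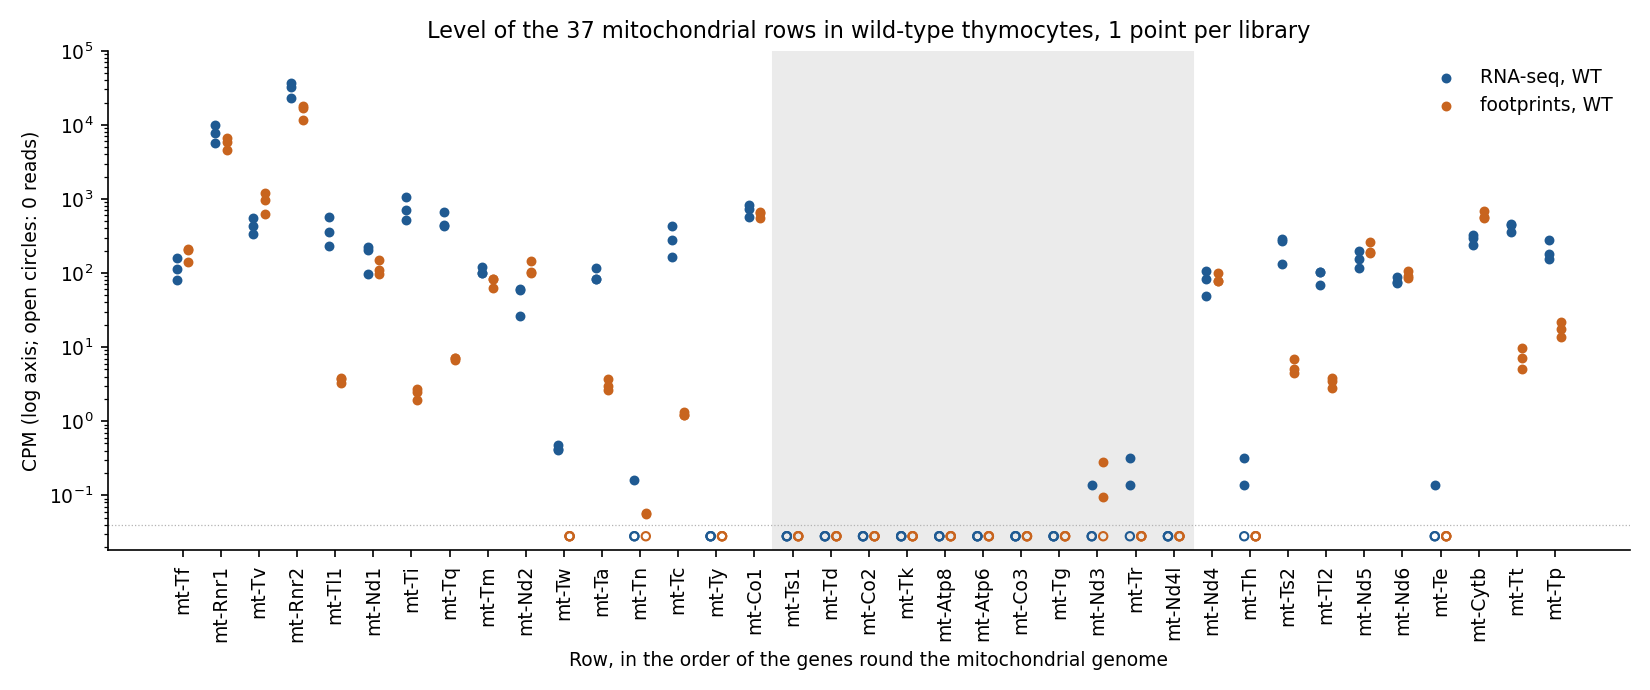
Level of each of the 37 mitochondrial rows in the 3 WT libraries of each assay, in CPM on a log axis, with the rows in their order round the genome and open circles for libraries with 0 reads, drawn below the dotted line since a log axis has no 0. The shaded run of 11 rows from mt-Ts1 to mt-Nd4l is at or near 0 in both assays, while mt-Co1 and mt-Nd4 on either side of it are not.

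In both assays the rRNA rows took most of the mitochondrial reads. They held 90.1% of them in RNA-seq (85.6% to 92.9% over the 6 libraries) and 87.8% in footprints (86.0% to 89.2%). Protein rows held 2.80% in RNA-seq (1.62% to 4.86%) and 7.19% in footprints (5.82% to 9.02%), so that every footprint library had a larger protein share than any RNA-seq library. tRNA rows held 7.13% in RNA-seq (5.52% to 9.55%) and 5.03% in footprints (4.53% to 5.52%). As a share of all reads in genes, all mitochondrial rows together made up 4.47% ± 0.879 (SD, n = 3) in WT RNA-seq and 2.43% ± 0.468 (SD, n = 3) in WT footprints.

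The level of a row in footprints was then compared with its level in RNA-seq, relative to the other genes of the same libraries. Each row was set against itself in the other assay, so the same gene length stands on both sides. Fragment size in each assay was not taken into account, and its part in the ratios of short rows such as the tRNA rows was not tested. Levels of different rows were not set against each other, since no gene lengths for the build of these counts were used. Among the 7 protein rows with reads in WT, 4 were higher in footprints than in RNA-seq and none was lower, with a median log2 ratio of 0.56. Of the 12 tRNA rows, 9 were lower and 2 higher, with a median of -4.86. Over all 21 rows 16 were called (edgeR, FDR under 0.05), 76.2%, when 85.3% of the 14385 genes tested were called, 41.9% higher and 43.3% lower, so calls were no more frequent among the mitochondrial rows than among all genes. The median over all genes was -0.02.

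These ratios depend on how the assays are scaled to each other. They were scaled here by TMM over both assays; scaling within each assay moved the median of all genes from -0.02 to -0.34 in WT and from 0.00 to -0.25 in KO and took the mitochondrial rows down with it. The CPM values of mitochondrial rows in single libraries are scaled within each assay, so the quotient of a footprint and an RNA-seq value printed here lies lower than the fitted ratio. Directions given below held under each scaling unless a sentence says otherwise.

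Complex I, which passes electrons from NADH into the chain, was represented by mt-Nd1, mt-Nd2, mt-Nd4, mt-Nd5 and mt-Nd6. mt-Nd2 (ENSMUSG00000064345.1) was at 61.4, 59.5 and 26.5 CPM in the WT RNA-seq libraries and at 104, 143 and 99.9 CPM in the WT footprint libraries. The assays did not overlap, and the log2 ratio of footprints to RNA-seq was 1.53 (SE 0.22, FDR 1.35e-05) in WT and 1.90 (SE 0.20, FDR 4.53e-07) in KO, the highest of the mitochondrial protein rows in both genotypes. mt-Nd5, which lay at 115 to 200 CPM in WT RNA-seq and 187 to 264 CPM in WT footprints, had a ratio of 0.74 (SE 0.16, FDR 0.000669) in WT and 0.82 (SE 0.16, FDR 0.000229) in KO. mt-Nd4 had smaller ratios, 0.39 (SE 0.20, FDR 0.0775) in WT and 0.50 (SE 0.17, FDR 0.0136) in KO. The WT value of mt-Nd4 was called with the replicate block (0.43, FDR 0.0108), with no filter on low counts (0.43, FDR 3.25e-05) and without RNA-seq WT replicate 1 (0.67, FDR 0.00621). The KO call for mt-Nd4 was lost when the assays were scaled separately (0.25, FDR 0.181), without RNA-seq KO replicate 1 (FDR 0.0917) and without footprint KO replicate 1 (FDR 0.0510).

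mt-Nd1 did not pass the test in either genotype, with a ratio of -0.28 (SE 0.23, FDR 0.269) in WT and 0.00 (SE 0.19, FDR 0.984) in KO. With no filter on low counts the WT value was -0.24 and was called (FDR 0.0239). Under separate scaling of the assays the WT value became -0.60 and was called lower (FDR 0.0282), and the KO value became -0.25 (FDR 0.242). Without RNA-seq WT replicate 3 the WT value was -0.56 (FDR 0.00279). mt-Nd6 (ENSMUSG00000064368.1) is the one protein gene of this genome read from the other strand. It had a ratio of 0.56 (SE 0.10, FDR 7.55e-05) in WT and -0.04 (SE 0.10, FDR 0.724) in KO, and under separate scaling 0.24 (FDR 0.0333) and -0.29 (FDR 0.0185). The test of that difference between the genotypes is given with translation. The strand setting of the counting is not given in the sources used here, so reads of mt-Nd6 and reads of the precursor transcribed through it from the opposite strand cannot be told apart, and the same holds for every row.

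mt-Cytb (ENSMUSG00000064370.1), the cytochrome b subunit at the heart of complex III, was at 329, 298 and 242 CPM in WT RNA-seq and at 573, 695 and 558 CPM in WT footprints. Every footprint library was above every RNA-seq library, and the log2 ratio was 1.35 (SE 0.12, FDR 3.9e-08) in WT and 1.61 (SE 0.11, FDR 6.68e-09) in KO. mt-Co1 (ENSMUSG00000064351.1), the catalytic subunit of complex IV, did not separate the assays. Its levels were 829, 742 and 579 CPM in WT RNA-seq and 558, 664 and 638 CPM in WT footprints, and the assays overlapped. Its ratio was 0.07 (SE 0.11, FDR 0.561) in WT and -0.09 (SE 0.11, FDR 0.462) in KO, and the WT value turned to -0.24 (FDR 0.0607) when the assays were scaled separately, which also made the KO value -0.34 and called it (FDR 0.00944).

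**Figure D2:**
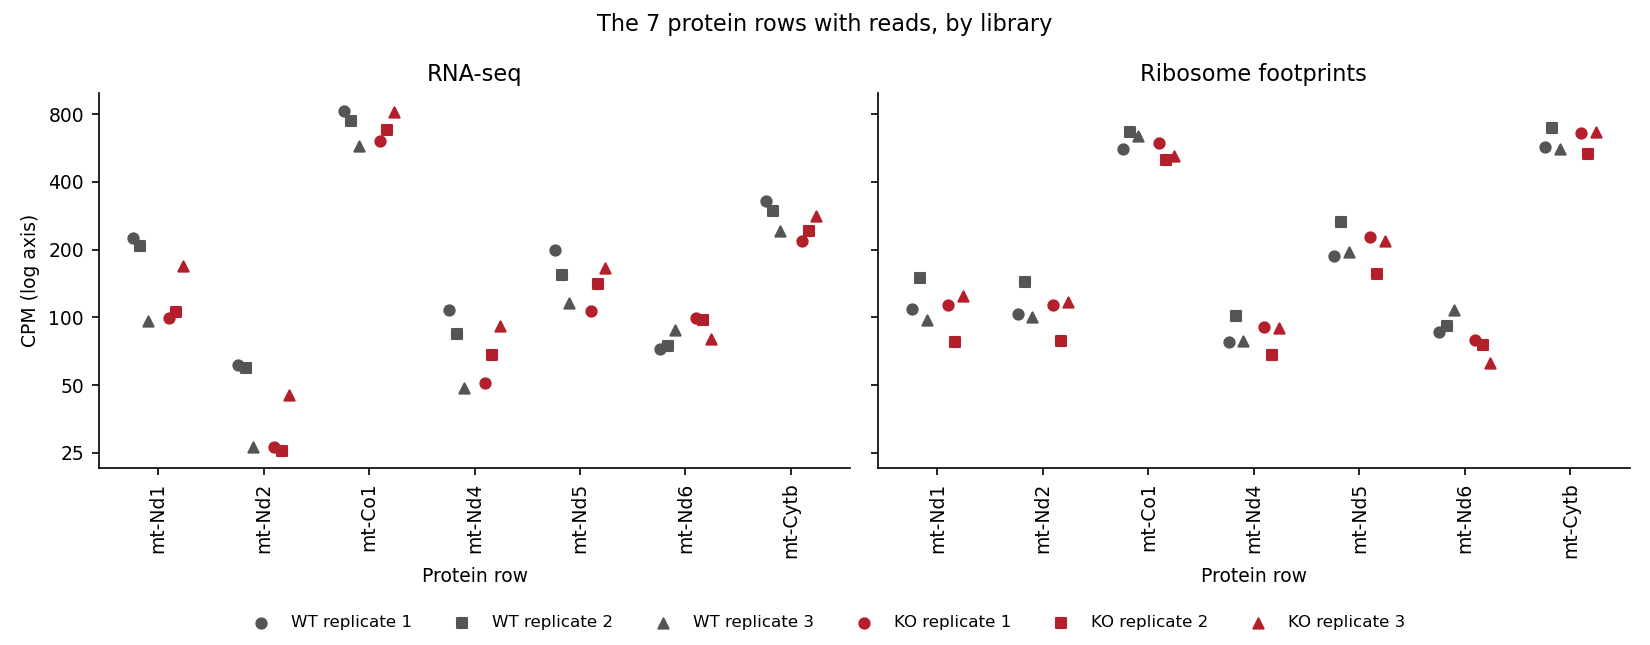
CPM (log axis) of the 7 protein rows with reads in each library of RNA-seq (left) and footprints (right), with grey for WT, red for KO and circle, square and triangle for replicates 1, 2 and 3. mt-Cytb and mt-Nd2 lie higher in footprints than in RNA-seq in every library, and in RNA-seq the libraries of each genotype stand in the reverse order for mt-Nd6 and mt-Nd4.

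The rRNA rows were lower in footprints than in RNA-seq, relative to other genes, in KO and in part in WT. mt-Rnr2 (ENSMUSG00000064339.1), the large-subunit rRNA, was at 37042, 22856 and 31971 CPM in WT RNA-seq and at 11596, 16633 and 18203 CPM in WT footprints, without overlap. Its log2 ratio was -0.71 (SE 0.17, FDR 0.00131) in WT and -1.21 (SE 0.18, FDR 2.1e-05) in KO. mt-Rnr1 (ENSMUSG00000064337.1), the small-subunit rRNA, had -0.19 (SE 0.17, FDR 0.303) in WT, where RNA-seq ranged from 5662 to 10037 CPM and footprints from 4565 to 6597 CPM, and -0.65 (SE 0.20, FDR 0.00657) in KO. The WT value of mt-Rnr1 was called, among the alternatives run, with the assays scaled apart (-0.51, FDR 0.0131) or by total reads (-0.50, FDR 0.0101), or without RNA-seq WT replicate 2 (-0.36, FDR 0.0291).

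The tRNA rows split into 2 kinds. In 9 of the 12 rows with reads, footprints were far below RNA-seq. mt-Ti, the isoleucine tRNA, went from 1053, 525 and 713 CPM in WT RNA-seq to 1.94, 2.46 and 2.74 CPM in WT footprints, a log2 ratio of -8.06 (SE 0.27, FDR 2.21e-12) or 268-fold. mt-Tc, for cysteine, had -7.55 (SE 0.36), mt-Tl1, for leucine, -6.44 (SE 0.30), and mt-Tq, for glutamine, -5.92 (SE 0.18). These were 60.7-fold to 268-fold lower in footprints, where few reads were left: mt-Ti had 184 footprint reads over the 6 libraries, 7 of them in KO replicate 3, and mt-Tc had 114.

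The other tRNA rows that fell in footprints did so less steeply. mt-Tt, for threonine, had -5.52 (SE 0.17), mt-Ts2, for serine, -5.11 (SE 0.27), mt-Ta, for alanine, -4.62 (SE 0.17), and mt-Tl2, for leucine, -4.43 (SE 0.17). mt-Tp, for proline, had the smallest fall, -3.22 (SE 0.20, FDR 1.4e-09), or 9.33-fold. In KO the same 9 rows ran from -8.17 (mt-Ti) to -3.37 (mt-Tp), and all were called. Over the 21 rows 18 were called in KO (85.7%), 6 higher and 12 lower, against 83.7% of 13775 genes, 41.7% higher and 42% lower. Over all genes tested in WT, 28.2% were called lower and past 2-fold.

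mt-Tv, mt-Tf and mt-Tm stood apart from the rest. mt-Tv (ENSMUSG00000064338.1), the valine tRNA, was at 551, 437 and 335 CPM in WT RNA-seq and at 620, 1200 and 957 CPM in WT footprints, so that every footprint library exceeded every RNA-seq library. Its log2 ratio was 1.35 (SE 0.20, FDR 1.48e-05) in WT and 1.29 (SE 0.19, FDR 1.53e-05) in KO. mt-Tf (ENSMUSG00000064336.1), the phenylalanine tRNA, was at 159, 81.7 and 114 CPM in WT RNA-seq and at 203, 143 and 213 CPM in WT footprints. The assays overlapped in CPM, and the ratio was 0.94 (SE 0.19, FDR 0.000268) in WT and 1.23 (SE 0.18, FDR 1.69e-05) in KO. mt-Tm, the methionine tRNA, had a ratio near that of the typical gene in WT, -0.20 (SE 0.11, FDR 0.0836), and a called fall in KO, -0.66 (SE 0.11, FDR 3.85e-05). With separate scaling of the assays the WT value of mt-Tm was called too (-0.52, FDR 0.000411), and likewise with RLE size factors (-0.25, FDR 0.0455).

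Together mt-Tv, mt-Tf and mt-Tm held 96.0% of the tRNA reads in footprints (94.3% to 97.0% over the 6 libraries) and 18.6% in RNA-seq (17.4% to 19.8%). By gene order mt-Tf lies directly before mt-Rnr1, mt-Tv lies between the rRNA genes, and mt-Tl1 follows mt-Rnr2. The first 2 were higher in footprints and mt-Tl1 was 86.8-fold lower. mt-Tm lies directly before mt-Nd2, the protein row with the highest ratio. Next to other high protein rows, mt-Tl2, directly before mt-Nd5 (0.74 in WT), had -4.43. mt-Tt, directly after mt-Cytb (1.35 in WT), had -5.52. Any part of gene order in these ratios was not tested.

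**Figure D3:**
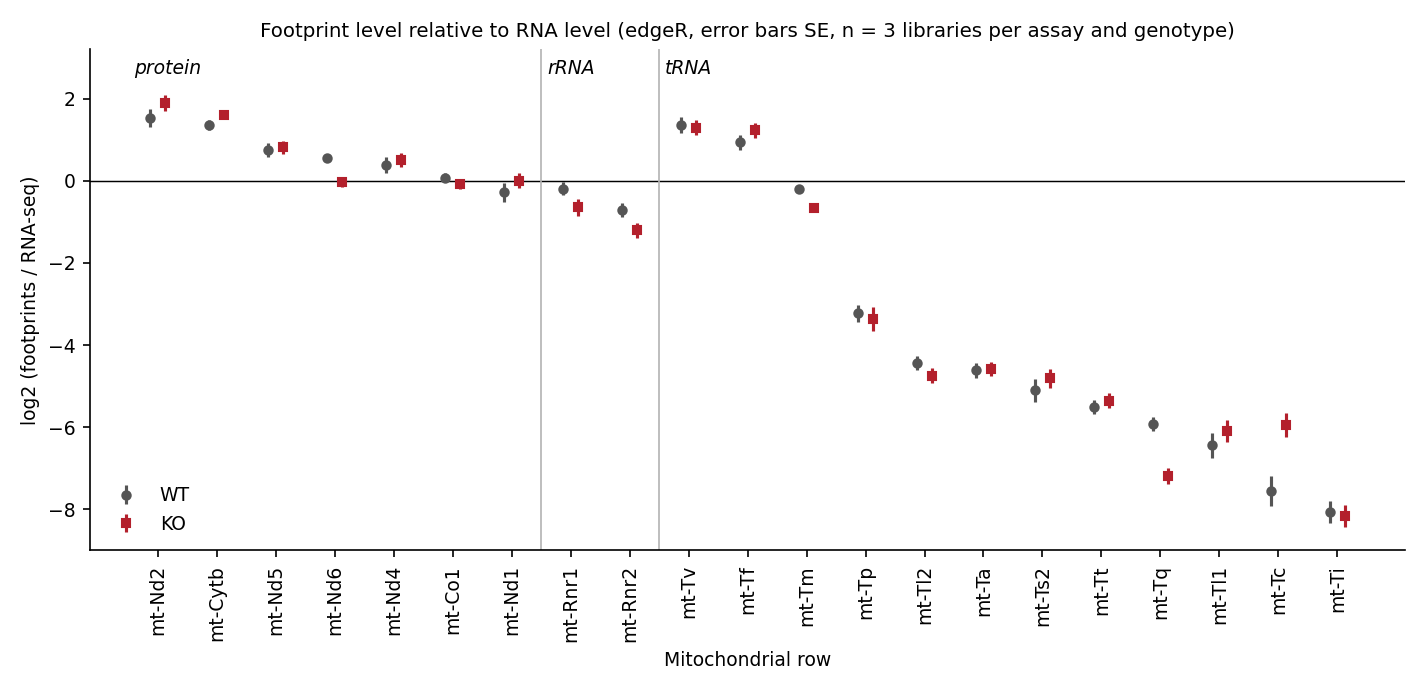
Fitted log2 ratio of footprints to RNA-seq for the 21 rows tested, in WT (grey circles) and KO (red squares), with error bars of 1 SE and 3 libraries per assay and genotype, grouped as protein, rRNA and tRNA. The 9 tRNA rows from mt-Tp to mt-Ti lie below -3 in both genotypes, while mt-Tv and mt-Tf lie above 0.

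Nuclear genes with related products were set beside the mitochondrial rows as 2 lists. Of 72 nuclear subunits of complexes I, III and IV and of the ATP synthase, 71 were tested in WT: 63 were higher in footprints and 6 lower, with a median log2 ratio of 1.92. Among all genes tested in WT, 41.9% were called higher and 43.3% lower. Complex medians lay between 1.67 (complex III) and 2.10 (ATP synthase), all above the mitochondrial protein median of 0.56. Called genes with the largest ratios were Ndufa5 (3.07, SE 0.10) of complex I and Cox8a (3.03, SE 0.11) of complex IV, and the lowest were Atp5l (-2.72, SE 0.15) of the ATP synthase and Ndufab1 (-2.51, SE 0.15), an acyl carrier protein of complex I. In KO the list again had 63 higher and 6 lower of 71, and a median of 1.98, when 41.7% of all genes tested were called higher and 42% lower.

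The 65 nuclear genes that maintain, transcribe, process or translate the mitochondrial genome had a median of 0.61 in WT, with 44 higher and 11 lower. That stood against 41.9% higher and 43.3% lower among all genes tested. Slirp, which binds and stabilises mitochondrial mRNAs together with Lrpprc, had 3.19 (SE 0.13), and Hsd17b10, a subunit of the mitochondrial RNase P that cuts tRNAs out of precursors, had 2.38 (SE 0.10). Lowest were Mss51, a mitochondrial protein named for a yeast translational activator, at -1.99 (SE 0.15), and Polg2, the accessory subunit of the mitochondrial DNA polymerase, at -1.38 (SE 0.12).

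KO was next compared with WT, first as the share of gene reads in each class. In RNA-seq the rRNA rows held 4.52%, 2.98% and 4.32% of gene reads in WT and 5.07%, 7.33% and 5.30% in KO. All KO libraries were above all WT libraries, 5.90% ± 1.24 against 3.94% ± 0.833 (SD, n = 3 each), with p = 0.1 by a two-sided exact permutation test, the smallest p that 3 against 3 allows. Protein rows had 0.159% ± 0.0318 in WT and 0.137% ± 0.0224 in KO (SD, n = 3 each, exact permutation p = 0.3), and tRNA rows 0.375% ± 0.0819 and 0.390% ± 0.0695 (SD, n = 3 each, exact permutation p = 1); both overlapped. In footprints every class overlapped. rRNA rows had 2.12% ± 0.429 in WT and 2.32% ± 0.464 in KO (SD, n = 3 each, exact permutation p = 0.6), protein rows 0.186% ± 0.0221 and 0.172% ± 0.0204 (exact permutation p = 0.6, n = 3 each), and tRNA rows 0.124% ± 0.0274 and 0.131% ± 0.0273 (exact permutation p = 0.8, n = 3 each). Adjusted over the 8 share comparisons (each class and all rows, in both assays), no p was below 0.4.

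Row by row, 1 of the 21 mitochondrial rows was called between genotypes in RNA-seq (4.76%), when 6.91% of the 13652 genes tested were called. mt-Tm (ENSMUSG00000064344.1) was at 119, 100 and 99.8 CPM in WT and at 144, 172 and 169 CPM in KO. All KO libraries lay above all WT libraries, and the log2 fold change was 0.60 (SE 0.10, edgeR FDR 0.0257). Fitting the replicate number as a block ended the call (FDR 0.107), when 0.806% of all genes were called under it. Since same-numbered libraries stand on opposite sides of their group means, such a block can take up little of the scatter while adding terms. Here and below, a call lost under it does not tell whether a replicate effect was present. The call also ended in 4 of the 6 fits that left out 1 library (without WT replicate 2 or 3 or KO replicate 2 or 3, FDR 0.0721 to 0.0888). At an unadjusted p under 0.05 there were 5 rows: mt-Tm, mt-Tq, mt-Ta, mt-Rnr2 and mt-Tc.

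Of these, mt-Tq, mt-Ta and mt-Rnr2 were higher in every KO library than in every WT library without passing the test. mt-Tq was at 671, 443 and 432 CPM in WT and 737, 1126 and 1103 CPM in KO, or 0.94 on the log2 scale (SE 0.23, FDR 0.0624). mt-Ta was at 118, 83.2 and 82.6 CPM in WT and 121, 173 and 168 CPM in KO, or 0.70 (SE 0.19, FDR 0.0829). DESeq2 called both (adjusted p 0.0306 for mt-Tq and 0.000966 for mt-Ta), as did the joint fit of all 12 libraries (FDR 0.00386 and 0.0131). mt-Rnr2 was at 40419, 63436 and 46890 CPM in KO, against the WT values given above, or 0.71 (SE 0.23, FDR 0.118; FDR 0.0402 with no filter on low counts), and mt-Rnr1 had 0.43 (SE 0.29, FDR 0.434) with overlapping groups. mt-Tc pointed the other way, from 426, 282 and 163 CPM in WT to 91.3, 145 and 183 CPM in KO, or -1.05 (SE 0.39, FDR 0.165; FDR 0.0305 in the joint fit). Groups that did not overlap were found for 4 of 21 rows (19%), all with KO above, against 30.9% of all genes tested. The other 8 tRNA rows had log2 fold changes of -0.65 (SE 0.38, mt-Tl1) to 0.31 (SE 0.21, mt-Tl2).

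No protein row was called in RNA-seq, and their median log2 fold change was -0.18. mt-Nd2 had -0.56 (SE 0.37, FDR 0.41) and mt-Nd1 -0.49 (SE 0.35, FDR 0.461), mt-Cytb -0.23 (SE 0.14, FDR 0.384), mt-Nd4 -0.18 (SE 0.33), mt-Nd5 -0.18 (SE 0.23) and mt-Co1 -0.04 (SE 0.16). mt-Nd6 was the 1 of 7 with a positive value, 0.23 (SE 0.11, FDR 0.27), from 72.4, 74.8 and 87.5 CPM in WT and 99.4, 97.5 and 80.1 CPM in KO. The libraries ordered these rows alike: 6 of the 7 protein rows were highest in replicate 1 and lowest in replicate 3 among WT libraries, and 6 of 7 were highest in replicate 3 among KO libraries. mt-Nd6 had the opposite order, lowest in WT replicate 1 and in KO replicate 3. Same-numbered WT and KO libraries stood on opposite sides of their group means, so the KO orders largely repeat the WT orders in reverse. They are not a separate observation. Over the 21 rows the highest RNA-seq library exceeded the lowest by 1.37 to 4.67 times, with a median of 2.19, against at most 2.40 times in footprints, with a median of 1.70.

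**Figure D4:**
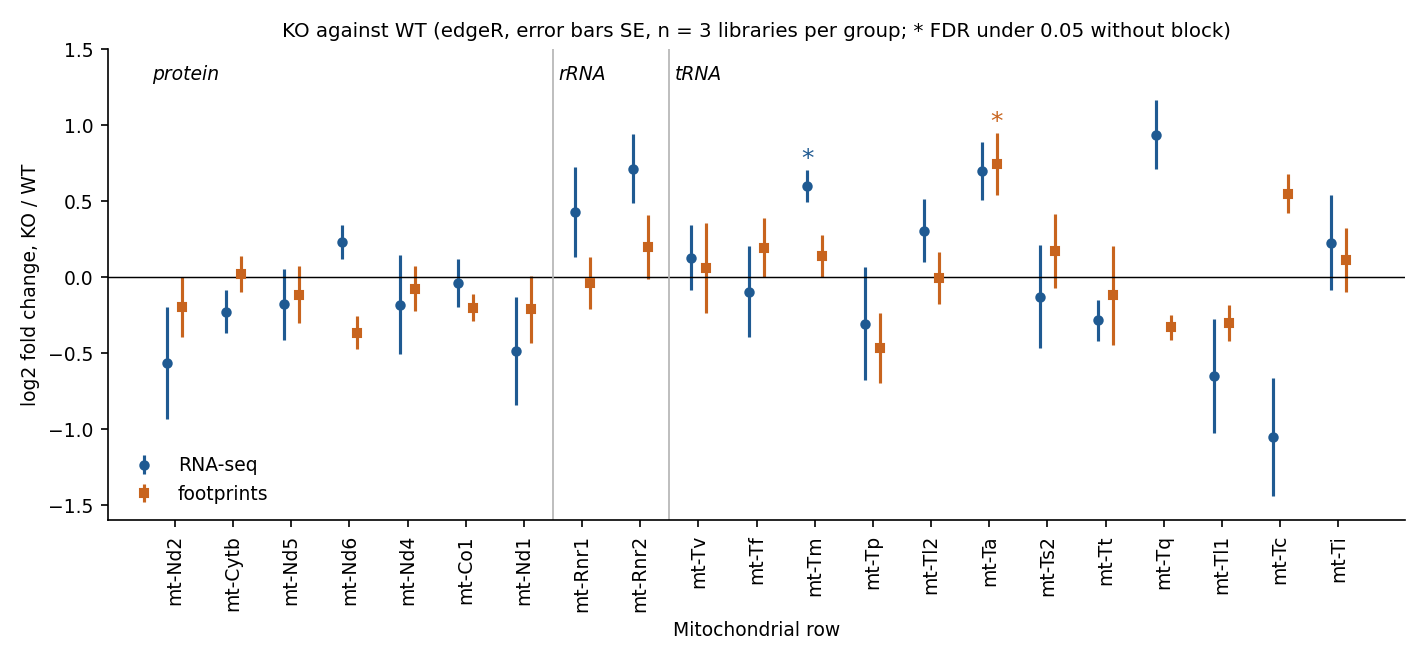
Log2 fold change of KO over WT for the 21 rows tested, in RNA-seq (blue circles) and footprints (orange squares), with error bars of 1 SE and 3 libraries per group; an asterisk marks an edgeR FDR under 0.05 in the fit without the replicate block. mt-Tm in RNA-seq and mt-Ta in footprints carry one, and mt-Tq and mt-Nd6 lie above 0 in RNA-seq and below 0 in footprints.

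In footprints 1 of 21 rows was called (4.76%), against 17.6% of the 13509 genes tested. mt-Ta (ENSMUSG00000064347.1) was at 2.63, 3.74 and 3.03 CPM in WT and at 6.29, 4.34 and 5.63 CPM in KO, from 303 footprint reads over the 6 libraries. All KO libraries were above all WT libraries, and the log2 fold change was 0.74 (SE 0.20, edgeR FDR 0.04997). That call was at the very edge of the threshold: it ended with the replicate block (FDR 0.205, 3.02% of all genes called), with DESeq2 (adjusted p 0.0722), in the joint fit of all 12 libraries (FDR 0.122) and in 5 of the 6 fits that left out 1 library, all but the one without KO replicate 2 (FDR 0.0513 to 0.14 in the 5). An unadjusted p under 0.05 was found for 4 rows: mt-Ta, mt-Nd6, mt-Tq and mt-Tc.

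mt-Nd6 was at 86.4, 91.6 and 107 CPM in WT footprints and at 79.6, 75.3 and 62.5 CPM in KO footprints. All KO libraries were below all WT libraries, at -0.36 on the log2 scale (SE 0.11, edgeR FDR 0.067), a change which DESeq2 called (adjusted p 0.011), as did the joint fit (FDR 0.0434). mt-Tq was at 7.08, 6.70 and 7.19 CPM in WT and at 5.46, 5.77 and 5.14 CPM in KO, or -0.33 (SE 0.08, FDR 0.0805), also without overlap. mt-Tc was at 1.31, 1.23 and 1.23 CPM in WT and at 1.85, 1.82 and 1.96 CPM in KO, or 0.55 (SE 0.13, FDR 0.136). Groups did not overlap for 4 of 21 rows (19%), against 38.1% of all genes tested.

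No other row was called in footprints. The protein median was -0.20, with mt-Co1 at -0.20 (SE 0.09, FDR 0.169), mt-Nd1 at -0.21 (SE 0.22), mt-Nd2 at -0.20 (SE 0.20), mt-Nd5 at -0.11 (SE 0.19), mt-Nd4 at -0.08 (SE 0.15) and mt-Cytb at 0.02 (SE 0.12). mt-Rnr2 had 0.20 (SE 0.21) and mt-Rnr1 -0.04 (SE 0.17). mt-Tv and mt-Tf, the tRNA rows that were high in footprints, had 0.06 (SE 0.30) and 0.20 (SE 0.19), and mt-Tm, called in RNA-seq, had 0.14 (SE 0.14). The remaining 6 tRNA rows lay between -0.47 (SE 0.23, mt-Tp) and 0.17 (SE 0.24, mt-Ts2). In footprints 6 of the 7 protein rows were highest in replicate 2 among WT libraries, and 6 of 7 were lowest in replicate 2 among KO libraries. As in RNA-seq, the KO order mirrors the WT order and is not a separate observation.

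**Figure D5:**
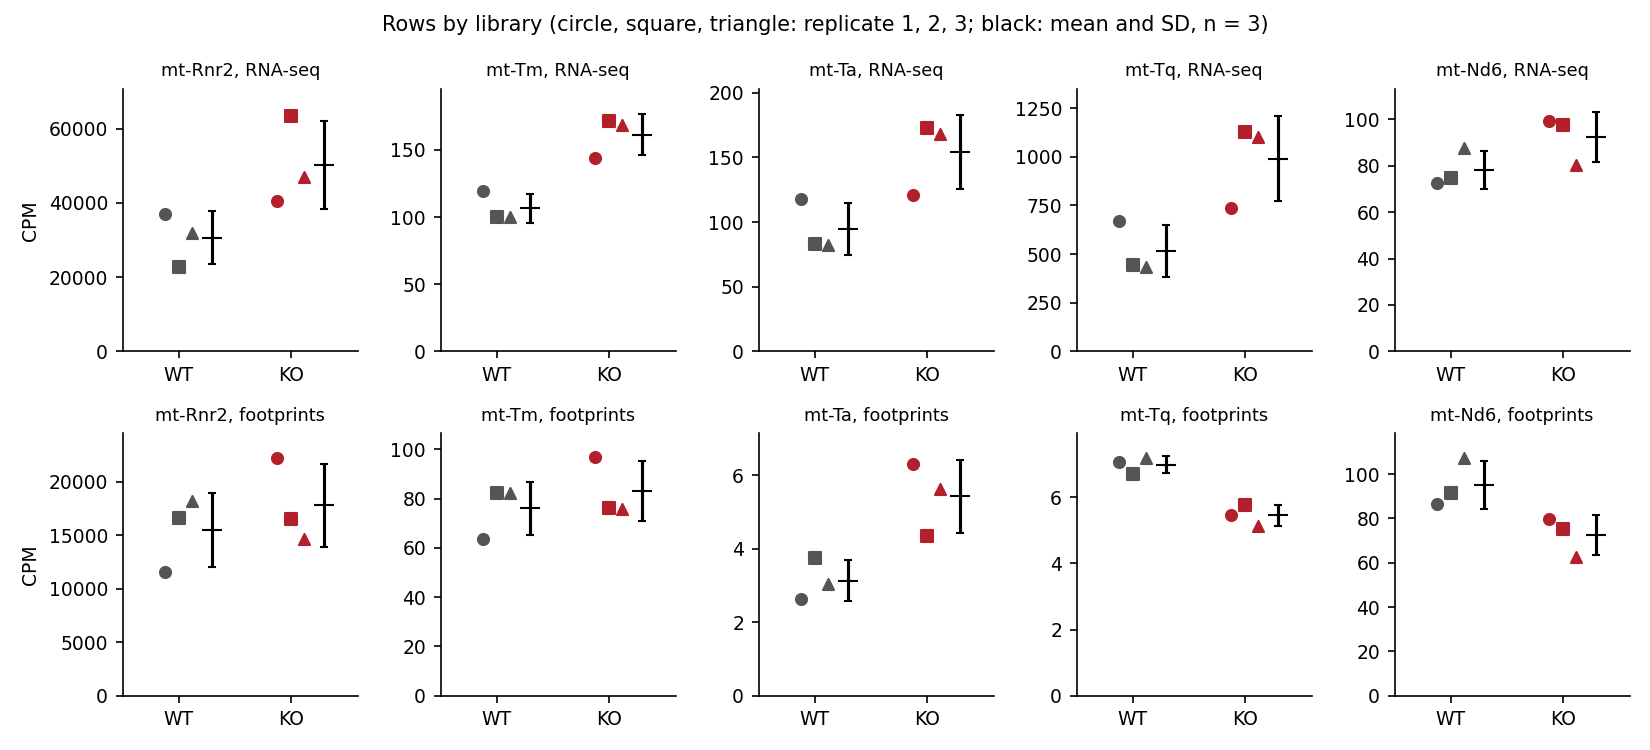
CPM of 5 rows by library in RNA-seq (top) and footprints (bottom) for WT (grey) and KO (red), with circle, square and triangle for replicates 1, 2 and 3 and the mean with SD (n = 3) in black; the axes start at 0. mt-Rnr2, mt-Tm, mt-Ta and mt-Tq are higher in every KO than in every WT RNA-seq library, and mt-Tq and mt-Nd6 are lower in every KO than in every WT footprint library.

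Translation was tested over all 12 libraries as the interaction of genotype and assay, that is, how far footprints changed more than RNA did. The rRNA and tRNA rows encode no protein. For them the value is only a change of reads in footprint libraries beyond RNA-seq, and not a change of translation. None of the 21 rows was called by edgeR, against 0.211% of the 11854 genes tested (25 genes); 3 rows had an unadjusted p under 0.05, and DESeq2 called 1. mt-Tq, at -1.27 (SE 0.34, edgeR FDR 0.137), was the row that DESeq2 called (adjusted p 0.00634). For mt-Nd6 the change was -0.60 (SE 0.16, edgeR FDR 0.141). A fit with a block for each genotype and replicate number called it (FDR 0.0284, 0.143% of all genes called). That fit takes the RNA-seq and footprint libraries of a genotype with the same number as 1 mouse, which the labels do not state. With separate blocks in each assay all 21 rows had the same FDR of 0.998, so that fit does not tell mt-Nd6 from the other rows. The difference between genotypes in the footprint to RNA-seq ratio of mt-Nd6 described above is this same contrast, and it did not pass the test without a block. mt-Tm had -0.47 (SE 0.18, FDR 0.277).

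The remaining protein rows had translation changes of -0.17 (SE 0.19, mt-Co1) to 0.36 (SE 0.42, mt-Nd2), and mt-Cytb had 0.25 (SE 0.19). mt-Rnr2 had -0.51 (SE 0.32, FDR 0.512) and mt-Rnr1 -0.47 (SE 0.35, FDR 0.592). The tRNA row with the largest positive value, mt-Tc, had 1.596 with an SE of 0.90 (FDR 0.458), and the tRNA rows not yet named ranged from -0.32 (SE 0.37, mt-Tl2) to 0.34 (SE 0.68, mt-Tl1).

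Nuclear partners were compared in the same fits. In RNA-seq 2 of 71 nuclear subunits were lower in KO and none higher, Ndufa13 (-0.46, SE 0.10, FDR 0.0498) and Ndufa9 (-0.39, SE 0.07, FDR 0.0299), both of complex I, when 3.49% of all genes tested were called higher and 3.41% lower. Of the 65 mitochondrial gene expression genes 1 was lower, Polrmt (-0.52, SE 0.11, FDR 0.0417), the RNA polymerase that transcribes the mitochondrial genome. All 3 calls ended with the replicate block (FDR 0.406, 0.412 and 0.33). The list medians were -0.08 and -0.04, against 0.00 for all genes tested.

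In footprints 5 of 70 nuclear subunits were higher in KO and 7 lower, with a median of -0.05, when 9.25% of all genes were called higher and 8.34% lower. Uqcrq, a small subunit of complex III, rose by 0.59 on the log2 scale (SE 0.07, FDR 0.00448) and was also called with the replicate block (FDR 0.0139). Ndufa7 of complex I had 0.33 (SE 0.06, FDR 0.0165), and the lowest called were Ndufb2 (-0.29, SE 0.05) and Ndufb9 (-0.29, SE 0.04), also of complex I. These last 3 calls ended with the block (FDR 0.15 to 0.295). Of the 65 gene expression genes 2 were higher and 6 lower, none of them called with the block (FDR 0.153 to 0.341 for the 4 named next): Trmt10c (0.30, SE 0.05) and Hsd17b10 (0.19, SE 0.04), partners in mitochondrial RNase P, were higher, and Pus1, a tRNA pseudouridine synthase (-0.41, SE 0.07), and Slirp (-0.31, SE 0.08) had the lowest values. In translation no gene of either list was called by edgeR.

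The authors' deposited table lists 21 mitochondrial rows for each assay. In RNA-seq it calls 3 of them higher in KO: mt-Ta (log2 fold change 0.59, adjusted p 0.00204), mt-Tm (0.55, adjusted p 6.95e-05) and mt-Tq (0.61, adjusted p 0.0283). In footprints the authors' deposited table calls mt-Nd6 lower in KO (-0.34, adjusted p 0.0161) and no other mitochondrial row. Of these 4 calls, the main edgeR fits here made that of mt-Tm. The joint edgeR fit of all 12 libraries also called mt-Tq and mt-Ta in RNA-seq and mt-Nd6 in footprints, and DESeq2 here made all 4 calls. The deposited log2 fold changes of the 4 were smaller in size than the main edgeR values here. Those were 0.70 for mt-Ta, 0.60 for mt-Tm, 0.94 for mt-Tq and -0.36 for mt-Nd6. The 2 may not be the same measure, and the reason was not tested.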

How the data were processed

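The authors deposited a count table for each assay, with whole numbers of reads per Ensembl gene ID, and named it adjusted; what was adjusted is not given in the sources used here. Bowtie2 2.5.1, STAR 2.7.10a, HTSeq 2.0.3 and DESeq2 1.40.2 are named in the submitters' processing notes, without order. For the genome build and the strandedness of counting the sources used here name nothing. The rows htseq-count adds for unassigned reads (5) were left out of totals. The log2 fold changes and adjusted p-values of the authors come from 2 deposited comparison tables, whose 12 columns of per-library values were not used.

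Symbols came from a gene table by versioned ID (54587) or unversioned ID (567), and 180 IDs had none. Gene order and synonyms were taken from RefSeq (GRCm38.p6); no coordinates were used. Members and lists were chosen with earlier results of these data known.

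Each comparison was fitted over all genes with edgeR 4.0.16 in R 4.3.3: TMM, filterByExpr (minimum count 10), the quasi-likelihood test and Benjamini-Hochberg adjustment, with FDR under 0.05 called. KO against WT used the 6 libraries of an assay, translation the genotype by assay interaction over 12 libraries, and footprints against RNA the 6 libraries of a genotype. SE is the log2 fold change divided by the square root of F. Shares were tested by exact permutation. Named nuclear genes are the 2 largest rises and falls called per list with average log2 CPM of at least 3. The scripts were tested on simulated data with independent libraries. That test does not cover the opposite deviations of same-numbered libraries in the deposited counts. Alternatives were RLE, DESeq2 1.42.0, no filter, a replicate block, a joint fit, other assay scalings, leaving out the mitochondrial rows from the totals, and each library in turn. Limits for rows at 0 cover counting error only.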

Additional observations from a re-analysis of the deposited data

Results flagged for a closer look

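mt-Tq, the glutamine tRNA row, moved in opposite directions in the assays: all 3 KO libraries were above all 3 WT libraries in RNA-seq and below them in footprints. The change of footprints beyond RNA was -1.27 on the log2 scale (SE 0.34), and this interaction did not pass the edgeR test (FDR 0.137). The footprint values rest on 489 reads over 6 libraries, 21 of them in KO replicate 3.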

How the results depend on the processing

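Over 105 fitted values of mitochondrial rows, 1428 recomputed values gave 1303 with the same direction and the same side of the threshold, 17 no longer called, 30 newly called and 78 with the opposite sign. The replicate number as a block took the mitochondrial rows called to 0 in RNA-seq (110 genes in all against 943) and 0 in footprints (408 against 2375). In translation, a block for each genotype and replicate number called 1 mitochondrial row (17 genes in all against 25). Separate blocks in each assay, an alternative added after seeing the data, called 0, with FDR 0.998 for every mitochondrial row tested. Within an assay, same-numbered WT and KO libraries deviated in opposite directions, at -0.98 to -0.96 in RNA-seq and -0.98 to -0.97 in footprints. Those with other numbers correlated at 0.23 to 0.69 in RNA-seq and 0.33 to 0.64 in footprints. A block on the replicate number within an assay can therefore take up little of this scatter while adding terms to the fit. A call lost under that block does not tell whether a replicate effect was present. What the replicate number stands for in these counts was not tested. Across the assays (8716 genes), r for WT ranged from 0.0014 to 0.24 with matching numbers and from -0.30 to 0.13 with others; for KO the ranges were 0.0096 to 0.24 and -0.30 to 0.11. Not every same-numbered pair was over 0.1, so the mt-Nd6 call under a block by mouse rests on a pairing that neither the labels nor these values establish. Calls in RNA-seq rose to 3 with DESeq2, 4 with no filter on low counts and 4 in the fit of all 12 libraries, and in footprints to 2 with no filter; DESeq2 gave 1 in translation. The cause was not tested. Leaving out 1 library gave 0 to 1 calls in RNA-seq and 0 to 1 in footprints.

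Signs turned in KO against WT footprints for mt-Tl2 (0.057 with DESeq2, 0.052 with the block) and mt-Tt (0.0058 with DESeq2); in footprints against RNA for WT mt-Co1 (-0.24 with total reads and -0.24 with TMM within assays) and KO mt-Nd1 (-0.10 with RLE, -0.072 with DESeq2, -0.029 without mitochondrial rows in the totals, -0.25 with total reads, -0.25 with TMM within assays).

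Leaving out each library also turned signs of small values, with these ranges. KO against WT in RNA: mt-Tf -0.32 to 0.17, mt-Tv -0.034 to 0.31, mt-Ti -0.0066 to 0.52, mt-Co1 -0.17 to 0.073, mt-Nd4 -0.44 to 0.086, mt-Ts2 -0.42 to 0.073, mt-Nd5 -0.36 to 0.027, mt-Tp -0.56 to 0.00057. KO against WT in footprints: mt-Tf -0.0013 to 0.29, mt-Rnr1 -0.18 to 0.083, mt-Tv -0.19 to 0.29, mt-Ti -0.051 to 0.20, mt-Nd4 -0.16 to 0.063, mt-Ts2 -0.023 to 0.43, mt-Tl2 -0.10 to 0.13, mt-Nd5 -0.22 to 0.062, mt-Cytb -0.038 to 0.13, mt-Tt -0.30 to 0.20. Translation: mt-Tv -0.33 to 0.16, mt-Tl1 -0.056 to 0.60, mt-Ti -0.41 to 0.12, mt-Ta -0.15 to 0.24, mt-Nd4 -0.17 to 0.36, mt-Nd5 -0.15 to 0.24, mt-Tt -0.024 to 0.48, mt-Tp -0.48 to 0.095. Footprints against RNA: WT mt-Rnr1 -0.36 to 0.043, WT mt-Co1 -0.045 to 0.20, KO mt-Nd1 -0.19 to 0.29, KO mt-Co1 -0.23 to 0.032, KO mt-Nd6 -0.14 to 0.055. Share differences (KO minus WT, percentage points): tRNA in RNA -0.011 to 0.0622, rRNA in footprints -0.0609 to 0.363, tRNA in footprints -0.00835 to 0.0187. Depth limits the tRNA rows in footprints, with as few as 7 reads in a library, and the 16 rows without a test.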
